A study of Mus musculus with 15 samples.

Results

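Transcript levels were described in the vehicle-treated cells of the mouse pancreatic acinar line 266-6, which made up 3 of the 15 RNA sequencing libraries of the series. The 3 libraries were chosen by their label, which gives DMSO as the treatment, and all 3 were used. The monolayer cultures were kept in 10% fetal bovine serum, then held for 24 h in stripped medium and exposed for 24 h to DMSO, the solvent of the ligands, before RNA was extracted with TRIzol. The other 12 libraries came from the same line after AM580, CD3254, both together or 9-cis retinoic acid, and entered no comparison here. The line was established from a pancreatic tumour of a mouse that carried the SV40 T antigen gene under the elastase I promoter, so every library shares this transgene and comes from a single established line. The labels do not say whether the replicates were separate cultures, so the spread between them may be technical.

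The reads assigned to genes numbered 37958572 in replicate 1, 32939254 in replicate 2 and 37569644 in replicate 3. Levels are in CPM (counts scaled to 1000000 such reads), in the order of replicates 1, 2 and 3. At this depth 1 CPM stood for 38.0, 32.9 and 37.6 reads, and a gene with no read could have been present at up to 0.0790, 0.0911 and 0.0799 CPM, the value of 3 reads. A gene was called on at 1 CPM or more in each of the 3 libraries, off under 0.1 CPM in each, and in between otherwise. Levels of different genes were compared as TPM, in which counts are divided by the merged exon length of the gene before scaling, and given as the mean of 3 libraries. The merged length joins the exons of all annotated transcripts of a gene. It can exceed the length of the transcript that is expressed, which lowers the TPM of that gene. In bulk RNA, fewer cells of a type and less RNA per cell cannot be told apart. Replicate 1 stood apart from the other libraries, which widens the SD of many levels, and its differences are set out after the levels.

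Acinar cells form the exocrine pancreas and make digestive enzymes, many as inactive zymogens, which they store in granules and release on stimulation by cholecystokinin or acetylcholine. Their identity depends on PTF1, a complex of the basic helix-loop-helix factor PTF1A, an E protein and RBPJL or RBPJ that binds an E-box next to a TC-box in enzyme gene promoters. NR5A2, BHLHA15 and GATA factors act with it. Ductal cells are known for SOX9 and keratin 19, and islet cells for hormones and secretory granule proteins. Acinar cells in culture are known to lose enzyme expression and to gain ductal markers.

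Of 43432 genes in the table, 12883 were on, which is 29.7%, and 24218 were off. Among 21551 protein-coding genes 11824 were on, or 54.9%, and 6722 were off, or 31.2%. The same threshold was met by 122 of 2777 lincRNA genes and 543 of 5350 processed pseudogenes, whose reads may in part come from their parent genes. Mean levels reached 10 CPM in 9969 of the genes that were on, 100 CPM in 2636 and 1000 CPM in 60. The counts were spread over many genes. The 10 most abundant genes held 4.85%, 4.68% and 4.82% of the counts in replicates 1, 2 and 3, the top 100 held 15.6%, 15.3% and 14.5%, and the top 1000 held 45.9%, 46.6% and 44.7%.

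The most abundant transcripts per length were mt-Co1, which encodes a cytochrome c oxidase subunit, at 26105 ± 4717 TPM (SD, n = 3), and Ctrb1, the gene for the digestive protease precursor chymotrypsinogen B, at 21153 ± 3526 TPM. They were followed by mt-Cytb at 11186 ± 5556 TPM, by a predicted microRNA gene and by mt-Nd1 at 6851 ± 4037 TPM. The level of this predicted gene rested on replicate 3, with 58.8, 30.0 and 411 CPM, and its 57 bases raise its TPM. Next came the translation elongation factor genes Eef2 at 6330.1 ± 2084 TPM and Eef1a1 at 6155 ± 959 TPM, then Rps15, for a ribosomal protein, at 5644 ± 1057 TPM. Gc, for the vitamin D binding protein, ranked 9 by TPM, and it had 2883, 2681 and 2473 CPM, close to each other. The genes for the ribosomal proteins Rplp1, Rpl8, Rplp0 and Rps3a1 were also among the first 20, as was Bsg, for the lactate transporter chaperone basigin, at 3092 ± 1661 TPM. A pair of trypsinogen genes completed the digestive enzymes there, Prss2 at 4164 ± 896 TPM and Try5 at 3227 ± 515 TPM. By CPM, which is not divided by length, the first 20 also held Atp5b, Hsp90ab1, Tubb5, Pabpc1, Hsp90b1, Rack1, P4hb, Hspa8, Tpt1 and Actb. Of the 100 genes with the highest TPM, 28 were ribosomal protein genes by symbol, 7 mitochondrially encoded, 6 acinar enzyme genes, 4 glycolytic and 4 of the list of stress response genes.

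**Figure D1:**
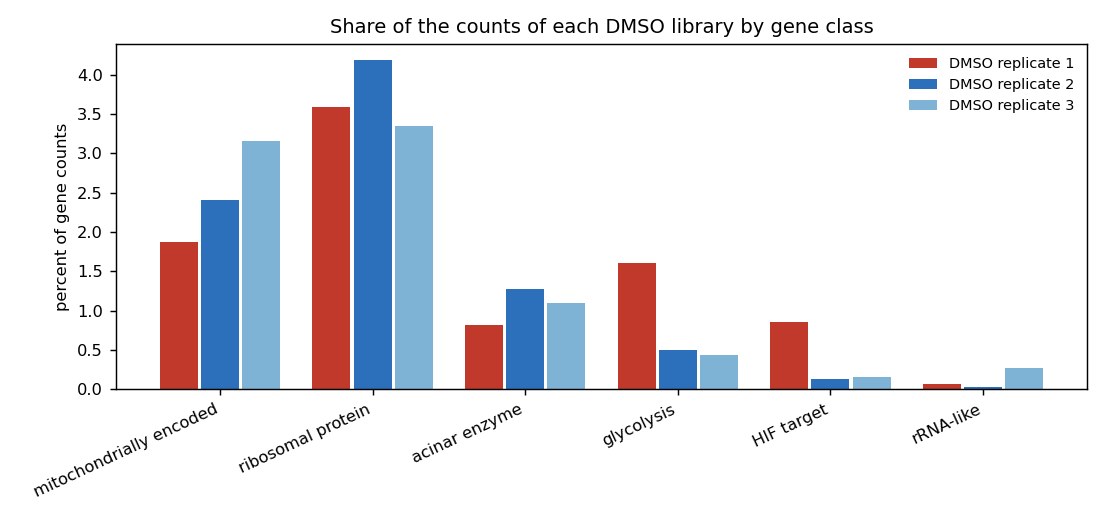
Percent of the gene counts of each DMSO library (bars, 1 library each) held by 6 gene classes. Replicate 1 is highest for glycolysis at 1.61% and for targets of the hypoxia-inducible factors at 0.860%, and lowest for mitochondrially encoded genes at 1.87% and acinar enzymes at 0.814%.

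By class, mitochondrially encoded genes held 1.87% of the counts in replicate 1, 2.40% in replicate 2 and 3.15% in replicate 3, and a list of 58 ribosomal protein genes held 3.59%, 4.18% and 3.35%. The 45 acinar enzyme genes held 0.814%, 1.27% and 1.10%. The 95% Wilson intervals of these shares were at most 0.0137 percentage points wide and cover counting error only, so the differences between libraries were larger than counting error. A list of rRNA-like genes held 0.0706%, 0.0274% and 0.268% and was highest in replicate 3. It joins genes known to collect reads of ribosomal RNA repeats with other noncoding RNA genes such as Rn7sk and Rmrp. Reads without a gene made up 20.9%, 18.1% and 23.1% of each library.

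A first set of acinar and ductal marker genes was detected in all 3 libraries, at very different levels. Cpa1 (ENSMUSG00000054446, chromosome 6, 30639218 to 30645363, plus strand), for the digestive enzyme carboxypeptidase A1, had 394, 717 and 583 CPM, or 14968, 23614 and 21888 reads. Ptf1a (ENSMUSG00000026735, chromosome 2, 19445663 to 19447501, plus strand), for the acinar subunit of PTF1, had 25.2, 62.8 and 54.3 CPM. Sox9 (ENSMUSG00000000567, chromosome 11, 112782224 to 112787760, plus strand), for a ductal and progenitor transcription factor, had 18.4, 41.2 and 45.1 CPM. Krt19 (ENSMUSG00000020911, chromosome 11, 100140810 to 100148665, minus strand), for the ductal keratin 19, had 3.93, 0.941 and 1.06 CPM, or 149, 31 and 40 reads, and was in between by the rule. For Cpa1, Ptf1a and Sox9 replicate 1 was the lowest library, and for Krt19 it was the highest. All 4 genes are protein-coding, with positions from GENCODE M21 (build GRCm38).

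The digestive enzymes were expressed unevenly. Of 45 acinar enzyme and secretory product genes, 24 were on, 15 in between and 6 off, so the share on was 53.3%, against 54.9% of all protein-coding genes. Their TPM ran from 21153 for Ctrb1 to 0 for Amy2a4 and Amy2a5. The first group held Ctrb1 with 4602, 7019 and 5996 CPM, Prss2 with 766, 1250.2 and 1206 CPM, Try5 with 934, 777 and 1028 CPM, and Cela1, for elastase 1, with 808, 2259.7 and 1424 CPM. Also high were Reg1, for a secreted lectin-like protein, at 1169.9 ± 238 TPM, Cpa1 at 1018 ± 253 TPM, the trypsin inhibitor gene Spink1 at 364 ± 90.3 TPM and Pnliprp1, for a lipase-related protein, at 231 ± 42.5 TPM. Replicate 1 was the lowest of the 3 for Ctrb1, Prss2, Cela1, Cpa1, Spink1 and Pnliprp1, but not for Try5 or Reg1.

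Below a gap in level came a second group of enzymes. Clps, for the lipase cofactor colipase, stood at 37.3 ± 11.1 TPM, and Cel, for carboxyl ester lipase, at 21.8 ± 10.9 TPM. Cela3b, Cela2a, Pla2g1b, Pnliprp2, Cuzd1 and Sycn lay between 10.8 and 18.7 TPM. Amy1, for an amylase also made by salivary gland and liver, had 7.96, 7.98 and 7.56 CPM. The pancreatic amylase genes were at the limit of detection. Amy2a4 and Amy2a5 had 0 reads in all 3 libraries, Amy2a1 had 0, 3 and 0 reads and Amy2b had 0, 4 and 2 reads. Amy2a3 reached 0.639 CPM in replicate 3 and had 0 and 1 read in the other libraries. These amylase genes are near-identical copies of each other, so uniquely placed reads may undercount them, and the same holds for the trypsinogens Prss1, Prss3, Try4, Try5 and Try10.

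Further enzyme genes outside these families were off or in between. Cpb1, for carboxypeptidase B1, had 0, 1 and 1 reads, Ctrc, for chymotrypsin C, had 0, 2 and 3, and Reg2 had 0, 1 and 0. Pnlip, for pancreatic triglyceride lipase, had 0.158, 0.546 and 0.346 CPM and Gp2, for the main zymogen granule membrane glycoprotein, had 0.290, 0.364 and 0.0799 CPM. Per length, Cpa1 was at 1018 TPM while Cpb1 was at 0.0180 TPM, and Ctrb1 was at 21153 TPM while Ctrl, for a chymotrypsin-like protease of the same granules, was at 0.631 TPM. The plot of levels by marker list shows this spread within a single group.

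**Figure D2:**
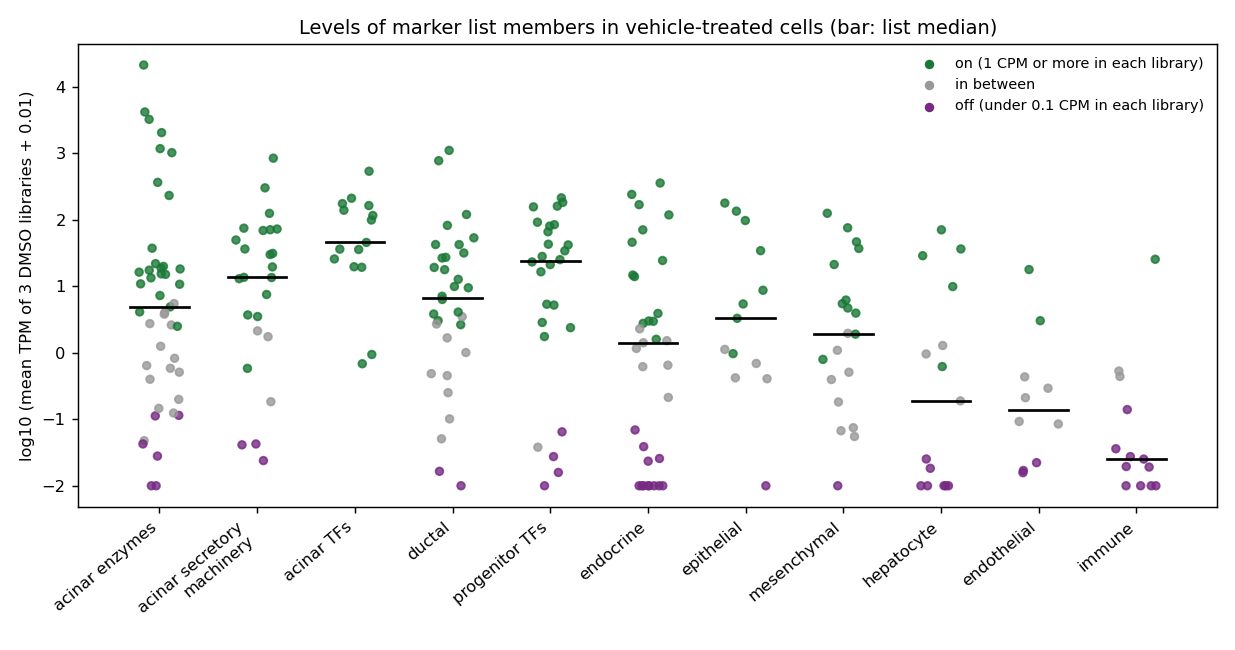
Each point is the mean TPM of 1 gene over 3 DMSO libraries, plus 0.01, on a log10 axis, with members of 11 marker lists side by side, colour for on, in between and off, and a bar for the list median. All 15 acinar transcription factors are on, acinar enzymes run from 0 to 21153 TPM, and 10 of 13 immune genes are off.

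Promoter sequences from RefSeq (build GRCm38.p6, 250 bases before to 50 after the start of the gene) are shown for the abundant enzyme genes Ctrb1 and Cela1 and for Cpb1, which was off, because they stand for the high and the low end of the list. Capitals mark the letters CACCTG (an E-box) and TTTCCC (a TC-box) on either strand, a single spelling of each element bound by PTF1.
Ctrb1, chr8:111690961-111691260, minus strand: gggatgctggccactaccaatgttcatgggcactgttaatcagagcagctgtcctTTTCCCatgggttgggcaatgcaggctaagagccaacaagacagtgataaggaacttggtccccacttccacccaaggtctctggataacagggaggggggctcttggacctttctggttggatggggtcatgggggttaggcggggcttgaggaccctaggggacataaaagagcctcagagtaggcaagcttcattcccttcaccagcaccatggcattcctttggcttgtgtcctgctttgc
Cela1, chr15:100687871-100688170, minus strand: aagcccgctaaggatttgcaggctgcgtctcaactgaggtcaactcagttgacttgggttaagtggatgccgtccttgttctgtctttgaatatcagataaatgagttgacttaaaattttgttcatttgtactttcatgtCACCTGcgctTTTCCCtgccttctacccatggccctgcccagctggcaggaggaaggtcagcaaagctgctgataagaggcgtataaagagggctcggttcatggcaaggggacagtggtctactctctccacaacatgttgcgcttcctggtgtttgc
Cpb1, chr3:20275684-20275983, minus strand: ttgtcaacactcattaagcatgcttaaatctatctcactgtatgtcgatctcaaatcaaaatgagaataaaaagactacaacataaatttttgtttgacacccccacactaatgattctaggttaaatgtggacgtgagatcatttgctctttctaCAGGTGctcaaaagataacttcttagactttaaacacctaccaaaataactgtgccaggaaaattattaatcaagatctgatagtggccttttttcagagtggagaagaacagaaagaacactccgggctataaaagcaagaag
The Cela1 window held both elements, the E-box starting 109 bases and the TC-box 99 bases before the start. By these letters the Ctrb1 window held a TC-box only, 195 bases before the start. The Cpb1 window held an E-box only, 94 bases before the start. Other spellings of the E-box were not searched, such as the letters cagctg shortly before the TC-box of Ctrb1. Among the 37 enzyme genes with a promoter entry, 19 windows held CACCTG, or 51.4%, against 20.2% of all 32851 windows, and 14 held TTTCCC, or 37.8%, against 25.2% of all windows. Both were found in 9 of the 37, against 4.86% of all windows. By state, both occurred in 4 of 19 enzyme genes that were on, 5 of 13 in between and 0 of 5 that were off. A match is a description of letters and no measure of binding.

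A list of 25 genes for the secretory apparatus also held genes of other functions, such as Nupr1, Gatm and Gnmt. Of the 25 genes 19 were on, 3 in between and 3 off, so 76.0% were on, against 54.9% of protein-coding genes. The highest per length were Nupr1, for a stress-responsive chromatin protein of pancreas, at 841 ± 84.0 TPM, and Cpe, for a carboxypeptidase of peptide hormone granules, at 301 ± 141 TPM. Erp27, for an endoplasmic reticulum protein, followed at 124 ± 4.01 TPM, then Gatm at 74.6 ± 7.08 TPM, the granule fusion genes Vamp8 at 72.4 ± 2.69 TPM and Vamp2 at 70.7 ± 15.5 TPM, and Rab3d, for a zymogen granule GTPase, at 49.5 ± 14.0 TPM. The receptor genes for secretory stimuli were low. Cckar, for the cholecystokinin A receptor, had 0.211, 3.04 and 2.90 CPM, and Chrm3, for the muscarinic M3 receptor, had 0.606, 0.213 and 0.186 CPM. Chrm1 and Sctr, for the muscarinic M1 and secretin receptors, were off. The calcium release channel gene Itpr3 was on at 109, 74.9 and 79.3 CPM.

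All 15 acinar transcription factor genes were on, against 54.9% of protein-coding genes. Xbp1, for a factor of secretory capacity, had the highest level per length at 536 ± 49.9 TPM, followed by Gata4 at 210.3 ± 55.5 TPM, the E protein gene Tcf3 at 174 ± 6.11 TPM, Nr5a2 at 163 ± 21.9 TPM, Rbpjl at 139 ± 69.2 TPM and Myc, for a growth regulator, at 116 ± 69.5 TPM. Ptf1a stood at 98.9 ± 38.1 TPM, Bhlha15 (Mist1), for a factor of granule organization, at 36.1 ± 17.4 TPM, and Gata6 at 35.7 ± 9.18 TPM. The RBPJL subunit gene had 115, 271 and 372 CPM and its paralog Rbpj 95.9, 64.1 and 69.9 CPM. Rbpjl was lowest in replicate 1 and Rbpj highest there. The lowest of the list were Foxp2 at 0.932 TPM and Mecom at 0.673 TPM.

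**Figure D3:**
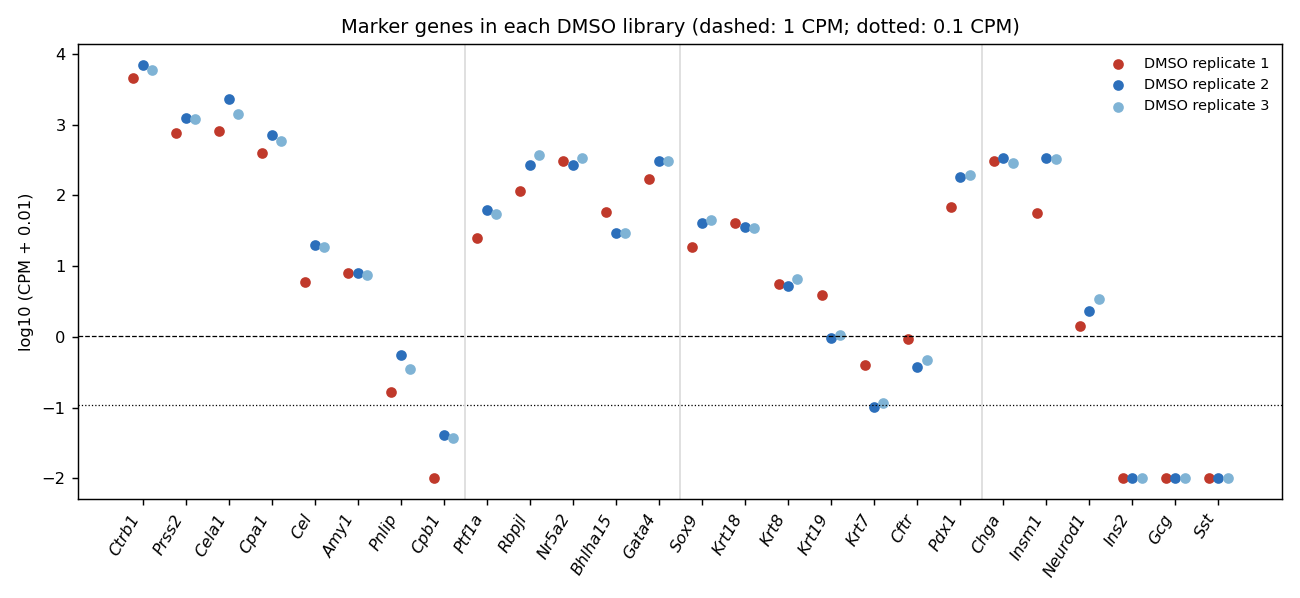
CPM plus 0.01 on a log10 axis for 26 acinar, ductal, progenitor and endocrine marker genes, with 1 point for each of the 3 DMSO libraries and lines at 1 and 0.1 CPM. Ins2, Gcg and Sst have no read in any library, Cpb1 stays below 0.1 CPM, and Krt19 is higher in replicate 1 at 3.93 CPM than in replicates 2 and 3 at 0.941 and 1.06 CPM.

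Of 32 ductal genes 21 were on, 9 in between and 2 off, so 65.6% were on, against 54.9% of protein-coding genes. The highest were Clu, for the secreted chaperone clusterin, at 1101 ± 202 TPM, Cd24a, for a cell surface glycoprotein, at 771 ± 71.8 TPM, and Anxa2, for annexin A2, at 119.8 ± 78.2 TPM. The simple epithelial keratin gene Krt18 had 40.4, 35.8 and 34.8 CPM, its partner Krt8 had 5.61, 5.28 and 6.57 CPM, and Krt7 had 0.395, 0.0911 and 0.106 CPM. Per length Krt18 exceeded Krt8, at 82.1 ± 10.0 TPM against 9.46 ± 1.17 TPM. The stem cell surface gene Prom1 stood at 53.3 ± 7.45 TPM, Epcam, for an epithelial adhesion molecule, at 42.3 ± 11.9 TPM, and Onecut1, for a progenitor and ductal factor, at 27.1 ± 4.54 TPM. Sox9 was at 26.5 ± 10.4 TPM. Genes for ductal fluid secretion were low, with Cftr, the chloride channel gene, at 0.922, 0.364 and 0.452 CPM, and Car2, for carbonic anhydrase 2, at 1.74, 1.61 and 2.66 CPM. Slc4a4, for a bicarbonate cotransporter, was higher at 105, 44.9 and 42.8 CPM. Muc1 was in between at 0.790, 0.638 and 0.772 CPM, and Tff1 had 0 reads in all 3 libraries.

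Among 26 genes of pancreatic progenitors and foregut endoderm, 21 were on, or 80.8% against 54.9% of protein-coding genes, 1 was in between and 4 were off. Pdx1, for a factor of pancreatic specification, led at 213 ± 94.9 TPM, then Nkx6-2 at 182 ± 41.9 TPM, Foxa2, for a pioneer factor of endoderm, at 160.0 ± 60.3 TPM, Id2 at 156 ± 40.6 TPM, Id3 at 91.7 ± 32.0 TPM and Prox1 at 84.2 ± 21.1 TPM. Hnf4a, for a nuclear receptor of endoderm, stood at 65.8 ± 24.2 TPM. Its paralog Hnf4g had 0 reads in all 3 libraries. A similar contrast was seen in other pairs. Nkx6-2 had 76.5, 129 and 124 CPM while Nkx6-1, the trunk and beta cell factor, had 3, 0 and 3 reads. Tead1 and Tead2, for DNA-binding partners of YAP1, had 97.3, 84.8 and 114 CPM and 99.3, 141 and 123 CPM, while Yap1 itself had 1, 2 and 6 reads, or 0.0263, 0.0607 and 0.160 CPM. Neurog3, for the endocrine progenitor factor, had 1, 0 and 0 reads and Sox17 had 0, 0 and 1.

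No islet hormone gene was on. Ins1, Ins2, Gcg, Sst and Pyy had 0 reads in all 3 libraries, Ppy had 0.395, 0.304 and 0.373 CPM and Ghrl had 0.211, 0.0911 and 0.346 CPM. Of the 33 endocrine genes 14 were on, or 42.4% against 54.9% of protein-coding genes, 7 were in between and 12 off. The genes that were on included those of neuroendocrine granules. Chga, for chromogranin A, had 308, 332 and 286 CPM, Chgb, for chromogranin B, had 138, 163 and 134 CPM, and Scg3, for secretogranin 3, had 126, 84.6 and 92.3 CPM. Insm1, for a zinc finger factor of endocrine differentiation, had 56.2, 334 and 324 CPM. Abcc8 and Kcnj11, for the subunits of the beta cell ATP-sensitive potassium channel, had 115, 110.2 and 125 CPM and 12.3, 19.8 and 16.6 CPM. Per length, Chga was at 356 ± 24.5 TPM, Insm1 at 239.9 ± 155 TPM, Chgb at 168 ± 14.0 TPM, Scg3 at 118 ± 31.0 TPM, Ttr, for transthyretin, at 70.3 ± 15.2 TPM and Abcc8 at 45.8 ± 3.64 TPM. Neurod1 had 1.42, 2.31 and 3.41 CPM and Pax6 9.22, 10.4 and 13.1 CPM. Other beta cell genes were off, with 0 reads in all 3 libraries for the glucose transporter gene Slc2a2, the zinc transporter gene Slc30a8 and Ucn3.

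Markers of other cell types were mostly absent, with exceptions, while 54.9% of all protein-coding genes were on. Among 13 immune genes 10 were off and 1 was on, Cd68, a lysosomal glycoprotein gene, at 15.4, 5.59 and 8.65 CPM, while Ptprc (CD45) had 2, 1 and 3 reads and Adgre1 had 0. Summed, the immune list held 15.9, 6.19 and 9.16 CPM. Of 10 endothelial genes 2 were on, Egfl7 at 19.5, 21.2 and 19.4 CPM and Tek at 7.98, 3.07 and 2.13 CPM, and the junction gene Cdh5 had 1, 0 and 0 reads, with list sums of 29.4, 27.4 and 23.3 CPM. Among 15 hepatocyte genes 5 were on, including Alb, for albumin, at 14.5, 32.4 and 34.2 CPM and Ahsg, for fetuin A, at 11.5, 21.9 and 26.7 CPM, while 5 genes, including Cyp7a1 and Fgb, had 0 reads. Their part in the results for other genes was not tested.

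Epithelial and mesenchymal genes were on in shares near the 54.9% of all protein-coding genes. Cdh1, for E-cadherin, had 186, 284 and 303 CPM and Cdh2, for N-cadherin, 99.1, 134 and 122 CPM, which per length was 178 ± 38.1 TPM against 46.4 ± 5.07 TPM. Of 13 epithelial genes 8 were on, or 61.5%, among them Elf3 at 134 ± 82.9 TPM and Cldn3 at 97.1 ± 12.5 TPM. Of 20 mesenchymal genes 11 were on, or 55.0%. These were led by Pdgfrb, for a platelet-derived growth factor receptor, at 125 ± 14.2 TPM, Vim, for vimentin, at 75.6 ± 19.3 TPM, Twist1 at 37.0 ± 2.99 TPM and Zeb1 at 21.2 ± 8.57 TPM. The fibroblast matrix genes were low, with Col1a1 at 2.13, 0.395 and 0.479 CPM, Col3a1 at 0.211, 0.121 and 0.0799 CPM, Dcn at 0.784 ± 0.310 TPM and 0 reads for Lum. Fn1, for fibronectin, had 0.158, 0.182 and 0.293 CPM.

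The series used ligands of retinoid receptors, and the levels of these receptor genes in vehicle-treated cells were read as well. Of 49 nuclear receptor genes 31 were on, or 63.3% against 54.9% of protein-coding genes, 9 in between and 9 off. Rxrb, at 84.4 ± 7.53 TPM, was the highest of the retinoid receptor genes per length, then Rxra at 48.9 ± 3.14 TPM, Rarg at 24.7 ± 8.33 TPM and Rara, for the receptor RARα, at 14.2 ± 4.89 TPM. Rara had 26.1, 15.8 and 16.4 CPM and Rarg 43.9, 26.8 and 27.8 CPM, and both were highest in replicate 1. Rarb had 0.211, 0.395 and 0.426 CPM, and Rxrg had 1, 0 and 0 reads. The receptor genes with the highest level per length after Nr5a2 were Nr1h2, for the liver X receptor β, at 96.2 ± 15.4 TPM, Nr1d2 at 89.2 ± 10.8 TPM, Rxrb and Hnf4a. Vdr, for the vitamin D receptor, had 2, 0 and 1 reads and was off, while Gc, for the plasma carrier of vitamin D, was among the most abundant transcripts.

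Genes that handle retinoids were on in 12 of 24 cases, or 50%, a share close to the 54.9% of protein-coding genes. Rbp4, for the plasma retinol carrier, led at 658 ± 246 TPM, with 375, 259 and 193 CPM. The fatty acid and retinoic acid binding protein gene Fabp5 was at 133 ± 106 TPM, and the dehydrogenase genes Adh5 and Adh1 at 111 ± 15.2 TPM and 71.4 ± 16.7 TPM. For retinaldehyde oxidation, Aldh1a2 stood at 13.6 ± 3.49 TPM, Aldh1a3 at 3.48 ± 0.459 TPM and Aldh1a1 at 0.719 ± 0.497 TPM. Among the genes for retinoic acid hydroxylases, Cyp26a1 and Cyp26c1 were at the limit, with 0, 2 and 3 reads and 0, 1 and 1 reads. The level of Cyp26b1, also on the list, is not reported here. Lrat, for the enzyme of retinyl ester storage, had 0, 0 and 1 reads, Stra6, for the retinol uptake receptor, 5, 1 and 9 reads, and Dhrs9 0.

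Of 20 Sox genes 7 were on, or 35% against 54.9% of protein-coding genes. Sox12 at 44.8 ± 10.7 TPM, Sox11 at 41.8 ± 5.89 TPM, Sox9, and Sox4 at 21.1 ± 3.86 TPM led. Sox13, Sox8 and Sox5 lay between 0.892 and 10.5 TPM. Sox2 had 0, 0 and 1 reads, and Sox3 and Sox14 had 0. Of 6 Gata genes 3 were on, or 50%, which were Gata4, Gata6 and Gata2, and Gata2 had 5.08, 6.47 and 7.85 CPM. Of 17 Klf genes 13 were on, or 76.5%. Klf10 at 60.7 ± 4.30 TPM, Klf16 at 42.2 ± 10.7 TPM, Klf15 at 37.9 ± 4.52 TPM and Klf13 at 26.9 ± 8.59 TPM had the highest levels per length, while Klf4 was at 16.5 ± 2.75 TPM and Klf5 at 2.84 ± 0.635 TPM.

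Genes of general cell functions were read for context, beside the 54.9% of all protein-coding genes that were on. All 35 genes of the unfolded protein and integrated stress responses were on. The chaperone genes Hsp90b1 and Calr led, at 1451 ± 491 TPM and 1446 ± 439 TPM, then Atf4, for the effector of the integrated stress response, at 1204 ± 260.0 TPM, and Hspa5 (BiP) at 1081 ± 411 TPM. The serine synthesis gene Phgdh stood at 907 ± 149.9 TPM and Asns, for asparagine synthetase, at 660.3 ± 145 TPM. All 24 cholesterol synthesis and uptake genes were on, with Insig1, for a sterol sensor, highest at 201 ± 70.9 TPM. Of 25 interferon-stimulated genes 22 were on, led by Ifi27 at 175 ± 31.0 TPM and Bst2, for an antiviral membrane protein, at 160.3 ± 40.3 TPM, and Isg15 had 9.01, 12.2 and 7.43 CPM. Of 23 immediate early genes 21 were on, with Jund at 162 ± 22.6 TPM and Egr1 at 139 ± 46.0 TPM. All 58 ribosomal protein genes and all 15 mitochondrially encoded genes were on, as were 21 of 23 genes of glycolysis and 30 of 33 HIF target genes.

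Replicate 1 was then set beside replicates 2 and 3. These are libraries of 1 label, replicate 1 was singled out with earlier results known, and a group of 3 gives no test for a single library, so values are given without p-values and the difference between replicates 2 and 3 serves as the spread. The 13613 genes with a mean of at least 1 CPM over the 3 libraries were compared, a filter that a gene high only in replicate 1 can also pass. Replicates 1 and 2 were at least 2-fold apart in 17.2% of them, replicates 1 and 3 in 13.3%, and replicates 2 and 3 in 3.28%. The SD of the log2 ratios was 0.76, 0.67 and 0.37 for these pairs. A gene was counted as higher in replicate 1 where its CPM was at least 2-fold above the higher of the other 2 libraries, and as lower by the mirror rule. By this count 862 genes, or 6.33%, were higher in replicate 1 and 534, or 3.92%, were lower. Replicate 2 is farther from replicate 1, and with replicate 3 left out 1514 genes were higher and 824 lower. Log2 ratios below are of replicate 1 over the mean of replicates 2 and 3, with 0.5 CPM added, and their median over all 13613 genes was -0.02.

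Genes known as targets of the hypoxia-inducible factors (HIF), which act when oxygen is low and are destroyed when it is present, had the highest median ratio of the 27 lists. Of 32 list members past the filter, 28 were at least 2-fold higher in replicate 1 and 0 lower, against 6.33% and 3.92% of all genes. The list is a selection of such targets, chosen with earlier results of these data known, so these counts hold for its members only. Their median log2 ratio was 2.66, and the median of replicate 2 over replicate 3 was -0.16. The list held 8596 CPM in replicate 1, against 1336 and 1529 CPM in replicates 2 and 3. Bnip3 (ENSMUSG00000078566, chromosome 7, 138890836 to 138909519, minus strand), for a mitochondrial receptor of mitophagy, had 853 CPM in replicate 1, against 46.8 and 89.1 CPM in replicates 2 and 3. Slc2a1 (ENSMUSG00000028645, chromosome 4, 119108711 to 119137983, plus strand), for the glucose transporter GLUT1, had 264 CPM in replicate 1, against 10.8 and 14.6 CPM in replicates 2 and 3. Ankrd37, for an ankyrin repeat protein, had 45.3 CPM in replicate 1, against 1.73 and 2.79 CPM in replicates 2 and 3. In each of these replicate 1 lay more than 9-fold above the other libraries, which differed from each other by less than 2-fold.

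The other members spanned several functions. Vegfa, for an angiogenic growth factor, had 568 CPM in replicate 1, against 112 and 149 CPM in replicates 2 and 3. Car9, for carbonic anhydrase 9, had 146 CPM in replicate 1, against 27.7 and 27.8 CPM in replicates 2 and 3. The peptide hormone gene Adm (adrenomedullin) had 18.6 CPM in replicate 1, against 0.213 and 0.106 CPM in replicates 2 and 3, where the last values rest on 7 and 4 reads. Egln3 and Egln1, for prolyl hydroxylases that mark HIF for destruction, had log2 ratios of 2.96 and 2.47, and the collagen hydroxylase genes P4ha1, P4ha2 and Plod2 had 2.87, 2.91 and 3.70. Ndrg1 had 3.60, Ddit4, for an inhibitor of mTORC1 signalling, 2.81, and Bhlhe40, for a transcriptional repressor, 3.40. The members that did not pass the 2-fold rule were Stc2, Plod1, Pfkfb4 and Car12, with log2 ratios of 0.29, 0.40, 0.08 and 0.13. Slc2a3, for another glucose transporter, was off in all 3 libraries.

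**Figure D4:**
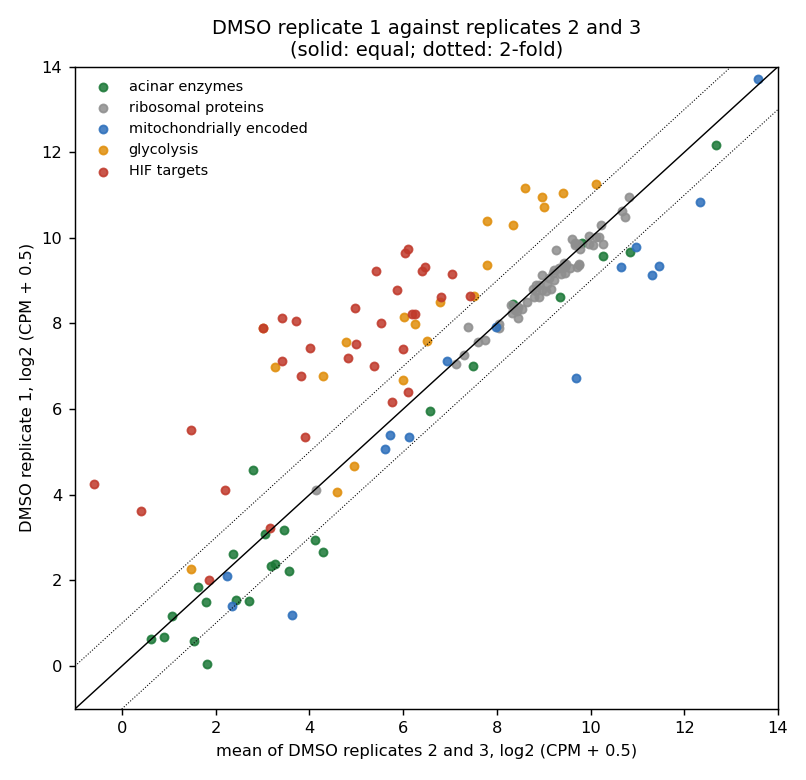
Members of 5 gene lists with a mean of at least 1 CPM, as log2 of CPM plus 0.5 in DMSO replicate 1 (vertical axis) and in the mean of DMSO replicates 2 and 3 (horizontal axis), with lines for equality and 2-fold. HIF target genes lie above the upper line in 28 of 32 cases, and ribosomal protein genes lie within 2-fold in 58 of 58.

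Promoter windows of 3 HIF target genes are shown because these genes were far higher in replicate 1 and, chosen with the matches known, their windows hold the core letters of the HIF response element, ACGTG, in capitals on either strand.
Ankrd37, chr8:45999801-46000100, minus strand: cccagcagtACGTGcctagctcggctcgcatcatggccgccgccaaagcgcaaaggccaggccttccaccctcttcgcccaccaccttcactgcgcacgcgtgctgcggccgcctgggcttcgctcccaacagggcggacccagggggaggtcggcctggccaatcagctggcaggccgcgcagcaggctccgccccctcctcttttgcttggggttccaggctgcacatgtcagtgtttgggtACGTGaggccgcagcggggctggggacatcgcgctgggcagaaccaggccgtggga
Bnip3, chr7:138909457-138909756, minus strand: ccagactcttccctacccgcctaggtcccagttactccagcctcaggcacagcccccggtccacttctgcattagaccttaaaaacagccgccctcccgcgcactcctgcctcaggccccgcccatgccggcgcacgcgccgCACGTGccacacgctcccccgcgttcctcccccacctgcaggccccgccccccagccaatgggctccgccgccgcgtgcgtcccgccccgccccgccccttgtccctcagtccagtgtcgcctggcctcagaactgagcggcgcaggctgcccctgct
Slc2a1, chr4:119108495-119108794, plus strand: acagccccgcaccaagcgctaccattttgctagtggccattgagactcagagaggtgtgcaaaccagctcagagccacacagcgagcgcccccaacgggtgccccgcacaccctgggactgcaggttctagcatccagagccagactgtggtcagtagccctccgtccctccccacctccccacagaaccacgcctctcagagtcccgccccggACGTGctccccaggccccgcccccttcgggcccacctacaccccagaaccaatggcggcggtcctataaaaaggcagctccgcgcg
The Ankrd37 window held ACGTG 241 and 6 bases before the start. In Bnip3 a match on each strand overlapped, at 108 and 107 bases before the start, and Slc2a1 had 1 at 36 bases. These distances are from RefSeq starts, which for these 3 genes differ from the gene starts of GENCODE M21. Among 27 list members with an entry, 16 windows, or 59.3%, held the letters, against 26.0% of the 10046 windows of genes at a mean of 1 CPM or more and 19.6% of all windows. For the genes at least 2-fold higher in replicate 1 the share was 29.1% of 604 windows, and for the lower genes 25.1% of 359. The 27 list members were taken as known HIF targets, with earlier results of these data known. The share of 59.3% thus describes the list and not replicate 1. These letters are short and occur in many promoters, and the windows leave out distal elements.

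Most genes of glycolysis were higher in replicate 1. Of 21 genes past the filter 16 were at least 2-fold higher and 0 lower, against 6.33% and 3.92% of all genes, with a median log2 ratio of 1.73, against 0.15 for replicate 2 over replicate 3. The list held 16102 CPM in replicate 1, against 4946 and 4353 CPM in replicates 2 and 3. Aldoa, for aldolase A, had 2303 CPM in replicate 1, against 408 and 369 CPM in replicates 2 and 3. Pgk1, for phosphoglycerate kinase, had 1336 CPM in replicate 1, against 196 and 246 CPM in replicates 2 and 3, and Ldha, for the lactate dehydrogenase subunit that favours lactate formation, had 2114 CPM in replicate 1, against 712 and 643 CPM in replicates 2 and 3. Hk2, the gene for the inducible hexokinase and the only member shared with the HIF list, had 237 CPM in replicate 1, against 6.92 and 8.14 CPM in replicates 2 and 3. Hk1 was less apart, at a log2 ratio of 1.14. The lactate exporter gene Slc16a3 had 188 CPM in replicate 1, against 19.1 and 35.2 CPM in replicates 2 and 3. Gapdh had 363 CPM in replicate 1, against 114 and 104 CPM in replicates 2 and 3, and it has many processed pseudogenes with which reads may be shared. Pklr and Eno3, for the liver pyruvate kinase and muscle enolase isoforms, lay below both other libraries, at -0.27 and -0.52.

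Several mitochondrially encoded transcripts were lower in replicate 1. Of 15 genes 6 were at least 2-fold lower, 5 of them NADH dehydrogenase subunits, and 0 higher, against 3.92% and 6.33% of all genes, with a median log2 ratio of -0.95. mt-Nd6, the only protein gene on the light strand, had 105 CPM in replicate 1, against 851 and 791 CPM in replicates 2 and 3. mt-Nd1 had 644 CPM in replicate 1, against 2678 and 2958 CPM in replicates 2 and 3, and mt-Nd5 had 559 CPM in replicate 1, against 2243 and 2813 CPM in replicates 2 and 3. mt-Cytb, for cytochrome b, had 1829.8 CPM in replicate 1, against 4430.0 and 5942 CPM in replicates 2 and 3. mt-Co1 did not follow, with 13482 CPM in replicate 1, against 10429 and 14013 CPM in replicates 2 and 3. Replicates 2 and 3 also differed here, at a median log2 ratio of -0.42, with replicate 3 the higher. The levels of mt-Co2, mt-Atp6, mt-Co3 and the ribosomal RNA genes were far below mt-Co1, between 175 and 503 TPM. Reads that place equally well in nuclear copies of mitochondrial DNA were not counted, so these levels are uncertain.

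Acinar enzyme and transcription factor genes lay mostly below the other libraries in replicate 1, though most of them did not pass the 2-fold rule. Among all genes, 3.92% passed that rule as lower and 6.33% as higher. Of 26 enzyme genes past the filter 17 lay below both other libraries and 3 above both, against 5731 and 5442 of the 13613 genes, with a median log2 ratio of -0.56. By the 2-fold rule 4 were lower, which were Cel, Cela2a, Zg16 and Dnase1, and 1 higher, Cuzd1, which had 23.4 CPM in replicate 1, against 4.74 and 8.09 CPM in replicates 2 and 3. Cel had 5.87 CPM in replicate 1, against 19.6 and 18.4 CPM in replicates 2 and 3, and Cela1 lay at a log2 ratio of -1.19 without passing the rule. Among the 15 transcription factors 3 were at least 2-fold lower. These were Ptf1a at -1.20, Rbpjl at -1.48 and Myc at -2.20. Bhlha15 was higher, with 59.0 CPM in replicate 1, against 29.4 and 29.2 CPM in replicates 2 and 3. Nr5a2 had 302 CPM in replicate 1, against 267 and 338 CPM in replicates 2 and 3. The secretory machinery as a list did not lie below, with 7 of 20 genes above both other libraries, 8 below both and a median log2 ratio of 0.04. Its members past the 2-fold rule were Cckar and Gjb1, both lower. Cckar, the receptor gene, had 0.211 CPM in replicate 1, against 3.04 and 2.90 CPM in replicates 2 and 3, and the gap junction gene Gjb1 had 6.43 CPM in replicate 1, against 19.6 and 22.8 CPM in replicates 2 and 3. The lowest share of acinar enzymes thus stood beside the highest shares of glycolysis and HIF targets in replicate 1, and their part in each other was not tested.

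Progenitor, ductal and endocrine genes went both ways. By the 2-fold rule 5 of 21 progenitor genes past the filter were lower and 1 higher. The counts were 2 lower and 5 higher of 23 ductal genes, and 3 lower and 1 higher of 17 endocrine genes. Among all genes 3.92% were lower and 6.33% higher. Pdx1 had 67.7 CPM in replicate 1, against 179.7 and 192 CPM in replicates 2 and 3, and Foxa2, Hnf4a, Mnx1 and Hhex were also at least 2-fold lower, with log2 ratios of -1.17, -1.15, -1.44 and -0.91. Hey1, for a Notch target repressor, was higher, with 53.0 CPM in replicate 1, against 13.2 and 9.13 CPM in replicates 2 and 3. Of the ductal genes, Krt19, Anxa2, Spp1, Slc4a4 and Aqp5 were at least 2-fold higher in replicate 1, at log2 ratios of 1.56, 1.38, 2.08, 1.25 and 0.98. Spp1, for osteopontin, also differed between replicates 2 and 3, at 10.4 and 4.47 CPM. Sox9 and Krt20 were lower, at -1.21 and -2.85. Among endocrine genes Insm1 had 56.2 CPM in replicate 1, against 334 and 324 CPM in replicates 2 and 3, Pcsk1 and Isl1 were lower too, at -1.44 and -1.05, and the prohormone convertase gene Pcsk2 was higher at 2.49. Chga and Chgb lay between replicates 2 and 3, at -0.01 and -0.10.

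**Figure D5:**
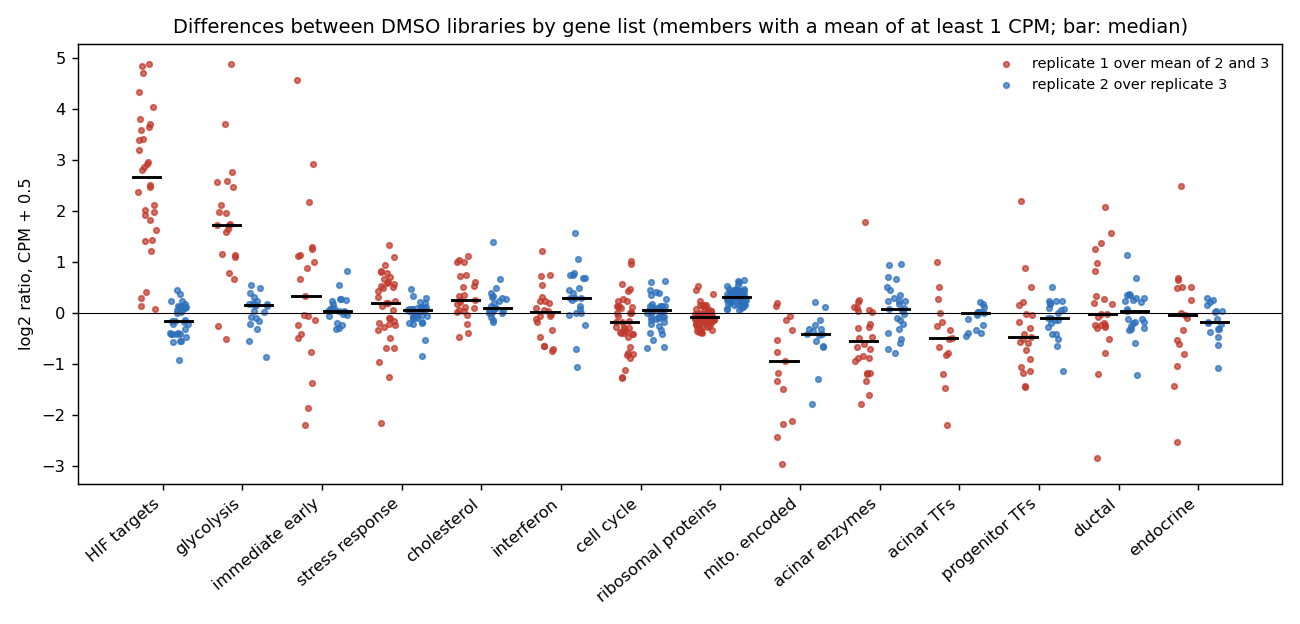
Log2 ratios of CPM plus 0.5 for members of 14 gene lists with a mean of at least 1 CPM, 1 point a gene, for DMSO replicate 1 over the mean of replicates 2 and 3 (red) and for replicate 2 over replicate 3 (blue), with list medians as bars. The red medians are 2.66 for HIF targets, 1.73 for glycolysis and -0.95 for mitochondrially encoded genes, while the blue medians lie between -0.42 and 0.31.

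Further lists differed in how many members passed the 2-fold rule, by which 6.33% of all genes were higher and 3.92% lower. None of the 58 ribosomal protein genes was 2-fold apart, with a median log2 ratio of -0.08, and of 40 cell cycle genes 1, the replication gene Gins1, was lower and 0 were higher. Of 22 interferon-stimulated genes 1 was higher, Ifit1, and of 24 cholesterol genes 1 was higher, Stard4, for a sterol carrier. Among 35 genes of the unfolded protein and integrated stress responses 2 were higher, Dnajb9 and Sdf2l1, and 2 lower, Atf5 and Chac1. The chaperone gene Hspa5 had 1973 CPM in replicate 1, against 1106 and 1194 CPM in replicates 2 and 3, and Atf5, for a stress-responsive factor, had 170.2 CPM in replicate 1, against 842 and 686 CPM in replicates 2 and 3. Immediate early genes split, with 7 of 21 higher, including Fos, Junb and Fosl2, and 3 lower, which were Myc, Ier2 and Klf2. Ier3, for an early response protein, had 155 CPM in replicate 1, against 5.34 and 6.68 CPM in replicates 2 and 3. Nuclear receptors split as well, with 6 of 33 higher, among them Ppara, Ppard and Rora, and 4 lower, which were Hnf4a, Nr2f2, Nr1h3 and Nr0b2. Genes on several lists were counted in each, such as Rora with the HIF targets, Hnf4a with the progenitor genes and Myc with the acinar transcription factors. Of 14 retinoid genes 1 was higher and 2 lower, with a median log2 ratio of -0.09. The higher one, Fabp5, had 273 CPM in replicate 1, against 84.5 and 79.3 CPM in replicates 2 and 3, and the lower ones, Aldh1a1 and Bco1, had log2 ratios of -1.12 and -0.71. Of 10 epithelial genes 3 were higher, which were Esrp1, Ovol1 and Elf3, and 0 lower. All 5 hepatocyte genes past the filter lay below both other libraries, Alb and Apob by the 2-fold rule, with a median log2 ratio of -1.05. Gata2, Gata4 and Gata6 also lay below both, at a median of -0.79, and none passed the 2-fold rule.

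Among genes with a mean of at least 5 CPM, 466 were higher and 327 lower in replicate 1. Of the 15 largest log2 ratios, 8 belonged to the HIF or glycolysis list, among them Pfkfb3, for an activator of glycolysis, at 4.70, Eno2, for an enolase, at 3.71, and Ero1l (Ero1a), for the oxidase of disulfide formation, at 3.80. The others included Ier3, Thrsp at 4.31, for a regulator of lipogenesis, Kbtbd11 at 3.91, the lysyl oxidase gene Loxl2 at 3.89, the complement gene C3 at 3.75, and Smtnl2 at 3.67. C3 also differed between the other libraries, at 1.70 and 12.7 CPM, as did Loxl2 at 1.82 and 5.06 CPM. Kbtbd11 had 0.213 and 0.799 CPM there, or 7 and 30 reads.

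The lowest ratio was that of Nepn, for the proteoglycan nephrocan, with 3.53 CPM in replicate 1, against 55.1 and 50.4 CPM in replicates 2 and 3. Ackr3, for an atypical chemokine receptor, had 1.74 CPM in replicate 1, against 28.4 and 22.1 CPM in replicates 2 and 3, and Angptl4, for a secreted inhibitor of lipoprotein lipase, had a log2 ratio of -3.10. Next were mt-Nd6, the claudin gene Cldn1 at -2.96, Krt20, and Lgals2, for galectin 2, with 37.1 CPM in replicate 1, against 246 and 224 CPM in replicates 2 and 3. Hsbp1l1, Adm2, Insm1, Mmp14, mt-Nd3, the microRNA host gene Mir17hg, Chst2 and Tril completed the 15, with log2 ratios between -2.58 and -2.22. In each of these 15 genes replicates 2 and 3 were within 2-fold of each other.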

How the data were processed

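RNA of 15 libraries had been sequenced, and the authors deposited 1 table of raw read counts per gene, from which the 3 DMSO columns were read by their labels. Per the submitters' processing notes, FastQC, HISAT2 2.2.1, SAMtools 1.18, HTSeq and build mm10 were used. For the strand setting and the annotation release, the sources used here give nothing, and overlapping or antisense genes may share reads. Rows of the 5 HTSeq categories without a gene, 18.1% to 23.1% of each library, were dropped. Reads that place equally well in near-identical copies were not counted, per those rows. CPM were counts over the library's gene total, and TPM used merged exon lengths of GENCODE M21, which holds 42548 of 43432 genes. Of 680 list entries 676 matched, 2 by another symbol. No treatment was compared and no p-value computed. Scaling factors of edgeR 4.0.16 (TMM) and DESeq2 1.42.0 in R 4.3.3 served as alternatives, beside other thresholds and each library left out. Named genes were the 20 highest by CPM and by TPM, cell type markers, the 6 highest members of each list and the 15 largest ratios each way at a mean of 5 CPM or more, without predicted gene models. Some genes that meet this rule are not reported here. Other named genes were chosen after their values were seen. The members and lists were chosen with earlier results of these data known.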

Additional observations from a re-analysis of the deposited data

How the results depend on the processing

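No paired analysis was possible because all results come from libraries of 1 group and from no test. The number of genes on and of members on in the 23 lists compared stayed within 1.5 times under thresholds of 0.5 and 2 CPM, a TPM of 1, TMM, DESeq2 size factors, a total without mitochondrial and rRNA-like genes, and with each replicate left out. The exception was the hepatocyte list, with 3 members on at 2 CPM. Without mitochondrial and rRNA-like genes the mean shares of the top 10, 100 and 1000 genes were 3.48%, 13.5% and 44.5%, against 4.78%, 15.1% and 45.8%. With a mean of at least 5 CPM, 466 genes were higher and 327 lower in replicate 1. The pairs 1 and 2, 1 and 3, and 2 and 3 then had 1423, 1006 and 133 genes 2-fold apart, against 2338, 1810 and 446. Fewer genes enter at that filter. Without replicate 2 or 3, 1044 and 1514 genes were higher, and 766 and 824 lower, since 1 library is easier to exceed than 2. Leaving out replicate 1 gives no value there. Under the scalings the median log2 ratio of all genes fell by at most 0.0147.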

Other observations

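Cell cycle genes were nearly all on in the vehicle-treated cells, against 54.9% of protein-coding genes. Of 41 cell cycle genes 40 were on, with Cdk4, for a G1 kinase, at 836 ± 70.5 TPM (SD, n = 3), the replicative helicase gene Mcm7 at 619.6 ± 90.1 TPM, Pcna at 424 ± 31.5 TPM and Top2a, for topoisomerase IIα, at 389.8 ± 64.8 TPM. The D-type cyclins were uneven, as Ccnd3 had 59.2, 28.9 and 31.3 CPM in replicates 1, 2 and 3, while Ccnd2 had 0.659, 0.516 and 0.293 CPM. The tumour suppressor gene Trp53 had 242, 308 and 329 CPM. Cdkn2a, whose locus encodes p16 and p19, had 54.1, 91.2 and 58.7 CPM, and Rb1 had 107, 61.0 and 98.4 CPM.

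Several imprinted genes were abundant. Igf2, for a fetal growth factor, stood at 329.8 ± 70.8 TPM, Mest at 198 ± 75.3 TPM, and the noncoding RNA gene H19 at 175 ± 149 TPM. H19 had 255 CPM in replicate 1, against 54.9 and 87.2 CPM in replicates 2 and 3. Grb10 was even across the libraries, at 333, 343 and 340.4 CPM. Of 27 genes 18 were on, or 66.7%, against 54.9% of protein-coding genes. Meg3, for a noncoding RNA of the Dlk1 domain, had 1, 1 and 1 reads and was off.

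A few other genes stood out and were chosen after their values were seen. Pbsn, known as a prostate-specific secretory protein gene, was on at 9.27, 8.32 and 12.7 CPM, or 352, 274 and 477 reads. Xist, the RNA of X inactivation, had 12, 3 and 5 reads, and the Y chromosome genes Ddx3y, Kdm5d, Uty and Eif2s3y had at most 6 reads in any library.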
